A study of Mus musculus with 4 samples.

Results

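The genes described here are 10 genes of the neuromuscular junction and of the response of muscle to loss of its nerve: *Chrna1*, *Chrnb1*, *Chrnd*, *Chrne*, *Chrng*, *Lrp4*, *Musk*, *Dok7*, *Rapsn* and *Ncam1*. They were chosen by symbol from a written list, with earlier results of these data known. All 10 were found among the 24054 gene symbols of the deposited table. The libraries were made from soleus muscles of female *mdx* mice of the strain C57BL/10ScSn-DMDmdx/J, which carries a mutated dystrophin gene. Treated and control muscles alike came from this strain, and no healthy muscle was compared. Infusions into the femoral vein were given once a month from 8 weeks of age, and the muscles were taken at the 12-month endpoint. The 2 mCDC muscles came from mice given mouse cardiosphere-derived cells at passage 5. These stromal cells were grown from the heart of a single C57BL/10ScSn/J donor mouse. The 2 vehicle muscles came from mice given the culture medium alone. Whether the 2 muscles of a group came from separate mice is not stated in the sample records, so the p-values measure the spread between these libraries.

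The nicotinic acetylcholine receptor of muscle is built from alpha, beta and delta subunits together with either a gamma subunit, in fetal and denervated fibers, or an epsilon subunit, in innervated adult fibers. Agrin released by the motor nerve binds Lrp4, which activates the receptor kinase MuSK with the help of its adaptor Dok7, and the scaffold protein rapsyn then holds the receptors in clusters beneath the nerve ending. When a muscle loses its nerve, nuclei along the whole fiber turn many of these genes on, *Chrng* and *Ncam1* among them. Young regenerating fibers, which are common in dystrophic muscle, express several of the same genes before they are innervated.

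The deposited values were expected counts, estimates of reads per gene, and they summed to between 22481391 and 27187425 per library. Levels are given as CPM, counts per gene brought to 1 library size by trimmed mean of M-values scaling. Markers of slow fibers, which define the soleus, were abundant in every library, with *Myh7*, the slow myosin heavy chain, between 38237 and 47467 CPM. *Myh4*, the myosin of the fastest fibers, ranged more widely, at 2096 CPM in mCDC replicate 1, 47.5 in mCDC replicate 2, 163 in vehicle replicate 1 and 411 in vehicle replicate 2. *Chat*, *Slc5a7*, *Slc18a3* and *Mnx1*, which mark motor neurons, had no count in any library, and motor neuron cell bodies lie in the spinal cord. Of the other 4 motor axon markers, *Nefm* lay between 0.303 and 0.411 CPM in the 4 libraries, and *Isl1*, *Nefl* and *Nefh* had 17, 2 and 1 counts in all. The 10 Schwann cell markers were all highest in vehicle replicate 2. Their summed level was 33.4 and 56.3 CPM in vehicle replicates 1 and 2 against 32.5 and 37.6 CPM in mCDC replicates 1 and 2.

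Across the table, 172 of 13652 tested genes were called higher in mCDC than in vehicle muscles and 374 lower. The thresholds were those of the study's methods, a change of more than 1.5-fold with p under 0.05. The p used here was an unadjusted one from edgeR's quasi-likelihood test, where the methods name only edgeR. In all, 4.0% of tested genes were called, 1.26% higher and 2.74% lower. Of the calls, 31.5% were higher, against 19.2% when libraries were scaled by their totals alone and 44.1% when a trend with transcript length and GC content was removed together with the replicate block. No gene passed an adjusted p of 0.05 (Benjamini-Hochberg), whereas 947 had an unadjusted p under 0.05 and DESeq2 gave 48 genes with an adjusted p under 0.05. In bulk muscle, fewer cells or synapses of a kind and less RNA in each cannot be told apart.

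The stretches of DNA before the start sites of 4 receptor subunit genes are shown because myogenin (*Myog*) and MyoD (*Myod1*), described below, bind E-boxes. Both are known activators of some receptor subunit genes. RefSeq promoters of GRCm38.p6, 250 bases before to 50 bases after a start site, were matched for 6 of the 10 genes: *Chrna1*, *Chrnb1*, *Chrne*, *Chrng*, *Musk* and *Dok7*. Capitals mark the E-box, CANNTG, which reads alike on both strands, and the N-box, CCGGAA, searched on both strands and known as a binding site of the ETS factor GABP at synaptic nuclei. No 2 matches overlapped. The *Chrna1* promoter lies on the minus strand at chr2:73580289-73580588, that of *Chrnb1* on the minus strand at chr11:69795888-69796187, that of *Chrne* on the minus strand at chr11:70619145-70619444, and that of *Chrng* on the plus strand at chr1:87205561-87205860. They read, 5′ to 3′:
Chrna1: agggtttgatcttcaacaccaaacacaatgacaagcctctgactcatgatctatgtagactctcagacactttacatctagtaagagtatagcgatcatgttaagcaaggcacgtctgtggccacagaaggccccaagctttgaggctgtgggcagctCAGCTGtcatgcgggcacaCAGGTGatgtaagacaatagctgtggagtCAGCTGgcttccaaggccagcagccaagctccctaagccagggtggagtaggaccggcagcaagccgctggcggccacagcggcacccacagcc
Chrnb1: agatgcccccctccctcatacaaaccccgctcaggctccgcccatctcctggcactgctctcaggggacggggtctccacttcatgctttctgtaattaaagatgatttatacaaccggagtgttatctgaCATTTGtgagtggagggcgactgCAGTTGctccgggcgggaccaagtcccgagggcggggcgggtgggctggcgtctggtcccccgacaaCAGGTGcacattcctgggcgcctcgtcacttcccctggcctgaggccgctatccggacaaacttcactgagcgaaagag
Chrne: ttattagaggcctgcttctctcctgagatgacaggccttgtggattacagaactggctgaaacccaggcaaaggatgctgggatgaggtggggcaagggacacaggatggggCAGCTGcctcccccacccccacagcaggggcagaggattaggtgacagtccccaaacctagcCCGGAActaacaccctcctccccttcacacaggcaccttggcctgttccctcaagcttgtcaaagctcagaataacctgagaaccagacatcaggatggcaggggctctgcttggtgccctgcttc
Chrng: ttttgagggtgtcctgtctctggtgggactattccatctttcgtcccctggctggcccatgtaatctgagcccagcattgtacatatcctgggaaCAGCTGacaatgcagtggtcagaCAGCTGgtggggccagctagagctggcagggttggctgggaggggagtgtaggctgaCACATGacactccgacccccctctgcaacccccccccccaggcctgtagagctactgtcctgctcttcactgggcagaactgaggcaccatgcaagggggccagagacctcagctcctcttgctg

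The promoters of *Chrna1*, *Chrnb1*, *Chrng* and *Musk* held 3 E-boxes each, and that of *Chrne* held 1. The 2 promoters listed for *Dok7* held 1 and 0. An E-box was found in 72.3% of the 32851 mouse promoters of the same length, and 3 or more in 17.6%. The letters of the N-box were found in 1 of the promoters matched here, that of *Chrne*, 76 bases before the start, and in 14.9% of all promoters. A match describes the letters of the window and shows no binding.

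**Figure D1:**
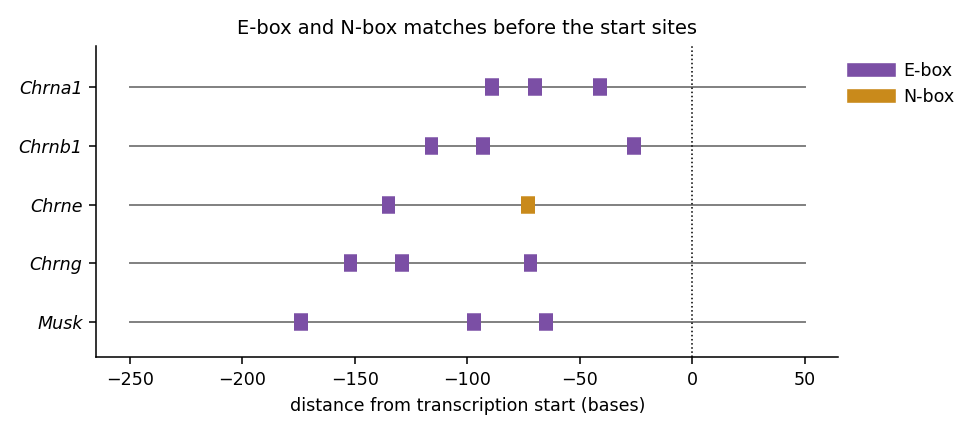
Positions of E-box and N-box matches (colored blocks) in the promoters of *Chrna1*, *Chrnb1*, *Chrne*, *Chrng* and *Musk*, with the distance from the transcription start in bases on the horizontal axis and the start at the dotted line. All matches lie before the start, and only *Chrne* among these 5 holds an N-box. *Dok7*, with 2 listed start sites, is not drawn.

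None of the 10 genes was called in either direction by edgeR or by DESeq2, where by edgeR 4.0% of all tested genes were. The log2 fold change of mCDC over vehicle muscles was above 0 for 8 of the 10, against 48.4% of all tested genes, and it ran from -0.14 for *Lrp4* to 0.42 for *Chrnb1*. The median over the 10 genes was 0.18, and that over all tested genes was -0.0094. The 7 slow fiber markers of the soleus showed a shift of like size, with 6 above 0, a median of 0.20, none called, and 5 with the mCDC libraries above the vehicle libraries without overlap. Their part in the levels of the 10 genes was not tested. Both mCDC libraries lay above both vehicle libraries for 4 genes, *Chrna1*, *Chrnb1*, *Dok7* and *Rapsn*, where 19.2% of tested genes did, and below them for *Lrp4* alone, where 19.5% did. Without mCDC replicate 2 the log2 fold change was above 0 for 6 genes and the median was 0.074. For any 1 gene, exact permutation of 2 libraries against 2 gives no p smaller than 0.333.

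The 10 genes spanned a wide range of levels. Per kilobase of transcript, taken from RefSeq-matched GENCODE transcripts, *Ncam1* and *Chrnb1* stood highest, with median levels over the 4 libraries of 30.6 and 28.7 CPM per kilobase and ranges that overlapped. *Rapsn* followed at 22.3 CPM per kilobase and *Chrna1* at 18.0, each separate from its neighbors over the libraries. *Chrnd* and *Dok7* overlapped, at 10.7 and 10.2 CPM per kilobase, and *Chrne* stood below both at 6.94. *Lrp4*, *Musk* and *Chrng* were lowest, at 2.65, 2.15 and 2.02 CPM per kilobase, and each overlapped the next. This order leans on the lengths used. By coding length instead, *Chrna1*, whose transcript of 4386 bases has a coding part of 1371, stood first at 57.5 CPM per coding kilobase, and *Chrnb1* second at 41.2.

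*Chrna1* encodes the alpha subunit, which carries most of the acetylcholine binding site, and lies on chromosome 2 of GRCm38 between 73563215 and 73580338. It had 75.6 and 66.7 CPM in vehicle replicates 1 and 2 against 87.4 and 82.0 CPM in mCDC replicates 1 and 2. Both mCDC libraries were above both vehicle libraries. The log2 fold change was 0.25 (standard error 0.14, 95% interval -0.062 to 0.57, edgeR adjusted p = 0.735). With the length and GC trend removed it was 0.39 with an unadjusted edgeR p of 0.0166, still short of 1.5-fold.

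*Chrnb1* encodes the beta subunit, whose phosphorylation downstream of MuSK helps to anchor the receptor, and lies on chromosome 11 between 69784036 and 69795943. It had 55.9 and 56.5 CPM in vehicle replicates 1 and 2 against 67.3 and 83.0 CPM in mCDC replicates 1 and 2. The vehicle libraries were close together and both mCDC libraries were above them, mCDC replicate 2 the more so. The log2 fold change was 0.42, a 1.34-fold difference (standard error 0.15, 95% interval 0.076 to 0.76, edgeR adjusted p = 0.685). *Chrnb1* was the only one of the 10 with an unadjusted edgeR p under 0.05, at 0.0225, which 2.85% of all tested genes had in the higher direction. Without mCDC replicate 2 its log2 fold change was 0.26 with an unadjusted edgeR p of 0.231, and over all 13 alternatives, 9 of which gave an unadjusted p under 0.05, the adjusted p was 0.381 or higher.

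*Chrnd*, the delta subunit gene, lies beside the gamma gene on chromosome 1 between 87190607 and 87200070. It had 29.9 and 32.1 CPM in vehicle replicates 1 and 2 against 30.4 and 40.3 CPM in mCDC replicates 1 and 2. One mCDC library was above the others and the other lay between the vehicle libraries. Its log2 fold change was 0.19 (standard error 0.17, 95% interval -0.21 to 0.59, edgeR adjusted p = 0.816), and it was -0.027 without mCDC replicate 2.

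*Chrne*, the epsilon subunit gene of the adult receptor, lies on chromosome 11 between 70614883 and 70619216. It had 9.92 and 12.9 CPM in vehicle replicates 1 and 2 against 11.7 and 10.4 CPM in mCDC replicates 1 and 2. The vehicle libraries enclosed both mCDC libraries. The difference was -0.046 on the log2 scale (standard error 0.20, 95% interval -0.51 to 0.42, edgeR adjusted p = 0.970), and it was 0.15 without vehicle replicate 2 and 0.038 without mCDC replicate 2.

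*Chrng*, the gamma subunit gene of the fetal receptor, lies on chromosome 1 between 87204657 and 87212694. It had the fewest counts of the receptor genes, between 110 and 216 per library. Its level was 4.81 and 6.22 CPM in vehicle replicates 1 and 2 against 8.18 and 5.02 CPM in mCDC replicates 1 and 2. mCDC replicate 1 stood highest, and the other 3 libraries overlapped between the groups. Its log2 fold change was 0.27 (standard error 0.28, 95% interval -0.39 to 0.92, edgeR adjusted p = 0.837), with -0.13 when mCDC replicate 1 and 0.57 when mCDC replicate 2 was left out. The same library, mCDC replicate 1, had the highest *Myh4*, *Myod1*, *Myh8* and *Mymk* and the lowest *Myh3* and *Mymx*, and their part in the *Chrng* level was not tested.

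Of 7 tested markers of satellite cells and regenerating fibers, *Pax7* was called higher and *Chodl* lower, against 1.26% and 2.74% of all tested genes, with log2 fold changes of 0.76 and -0.87 and edgeR adjusted p of 0.700 and 0.635. *Myh3* and *Myh8*, the embryonic and neonatal myosin genes, were not called, at -0.15 and -0.12 on the log2 scale. *Myh8* had 48.5 and 62.3 CPM in vehicle replicates 1 and 2 against 64.1 and 38.1 CPM in mCDC replicates 1 and 2. *Mymk*, which encodes the fusion protein myomaker, had 3.85 and 6.77 CPM in vehicle replicates 1 and 2 against 7.31 and 3.84 CPM in mCDC replicates 1 and 2. For *Myh8* and *Mymk*, as for *Chrng*, mCDC replicate 1 was highest and vehicle replicate 2 next. The other regeneration markers did not share this order. *Myh3* had 495 and 422 CPM in vehicle replicates 1 and 2 against 410 and 418 CPM in mCDC replicates 1 and 2, and *Mymx*, which encodes the fusion peptide myomixer, had 0.954 and 1.35 CPM against 0.757 and 0.822 CPM. Both were lower in the mCDC libraries without overlap, and neither was called. *Myf5*, a satellite cell factor, lay between 1.72 and 1.96 CPM and was highest in vehicle replicate 2.

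**Figure D2:**
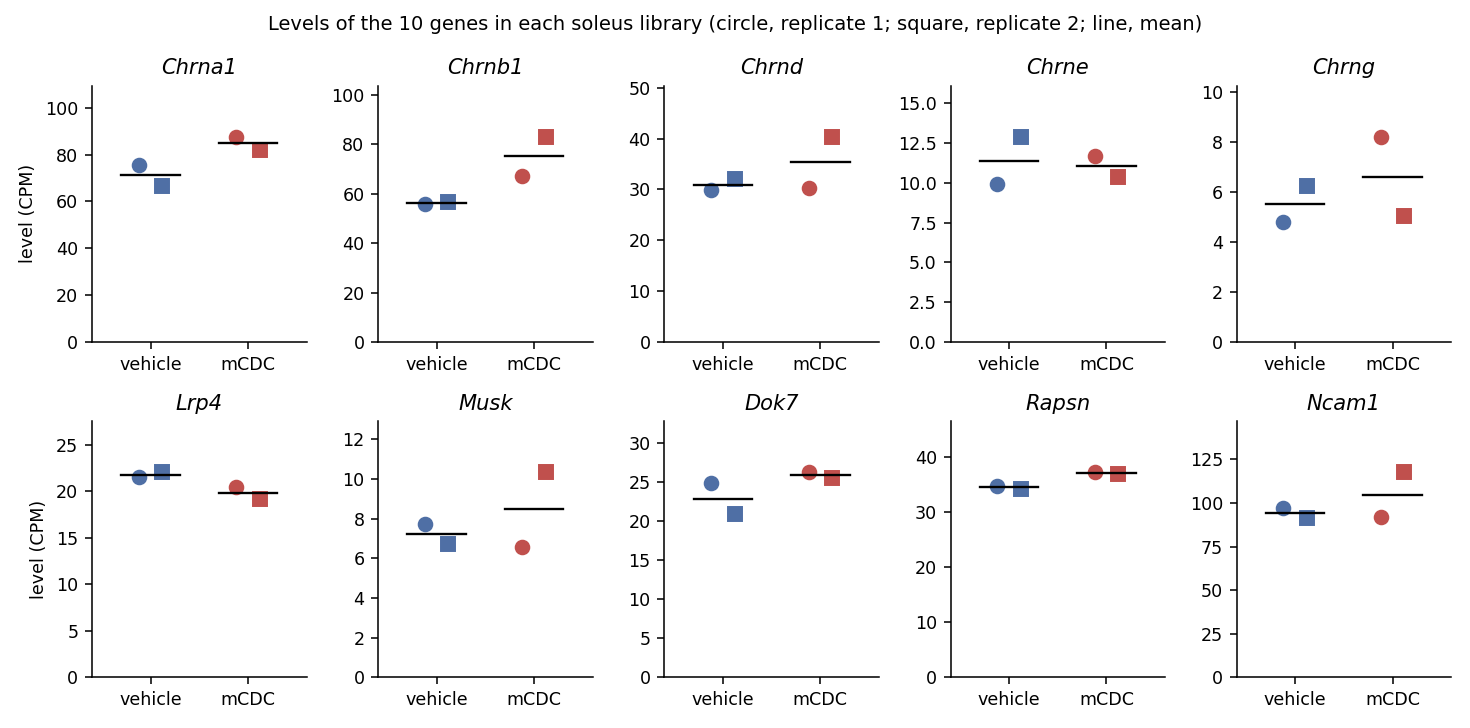
Level of each of the 10 genes in CPM (vertical axes from 0) in the 2 vehicle and 2 mCDC libraries, with circles for replicate 1, squares for replicate 2 and a line at the group mean. The groups are separate for *Chrna1*, *Chrnb1*, *Dok7*, *Rapsn* and *Lrp4* and overlap for the other 5.

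The balance of fetal and adult subunits was compared within each library, where library scaling cancels. Per transcript length, *Chrng* stood at 0.277 and 0.276 of the *Chrne* level in vehicle replicates 1 and 2, against 0.400 and 0.277 in mCDC replicates 1 and 2. mCDC replicate 1 was above the other 3 libraries, which shared nearly the same ratio. The mean log2 ratio in mCDC muscles was -1.59 ± 0.37 (SD, n = 2) and that in vehicle muscles -1.85 ± 0.0033 (SD, n = 2), a difference of 0.27 with an exact permutation p of 0.667 (two-sided). With 0.5 counts added to both genes the difference was still 0.27 but the exact permutation p was 0.333, since mCDC replicate 2 and vehicle replicate 1 were almost tied, at log2 ratios of -1.85 each. Without mCDC replicate 1 the difference was 0.0022. By coding length the ratio was 0.664 in mCDC replicate 1 and between 0.459 and 0.460 in the other libraries.

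Of the summed transcripts of the 5 subunit genes per transcript length, *Chrng* made up 2.82% and 3.57% in vehicle replicates 1 and 2 against 4.10% and 2.28% in mCDC replicates 1 and 2. *Chrne* made up between 8.22% and 12.9%, with the lowest share in mCDC replicate 2 and the highest in vehicle replicate 2. By transcript length *Chrnb1* made up the largest share, 42.3% and 41.8% in vehicle replicates 1 and 2 against 43.5% and 48.5% in mCDC replicates 1 and 2. Of the 4 ratios to *Chrne* compared, that of *Chrnb1* alone was separate between the groups with no counts added, with a difference in mean log2 ratio of 0.45 and an exact permutation p of 0.333, the smallest that 2 libraries against 2 allow. The ratios of *Chrna1* and *Chrnd* to *Chrne* differed by 0.29 and 0.21, each overlapping between the groups with an exact permutation p of 0.667. The share of *Chrna1* was between 23.6% and 28.1% by transcript length and between 39.6% and 45.5% by coding length. By coding length *Chrna1* made up the largest share in every library, and *Chrnb1* came second, between 30.6% and 36.5%. The precision of the *Chrng* share is limited by its counts, which were the lowest of the receptor genes.

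**Figure D3:**
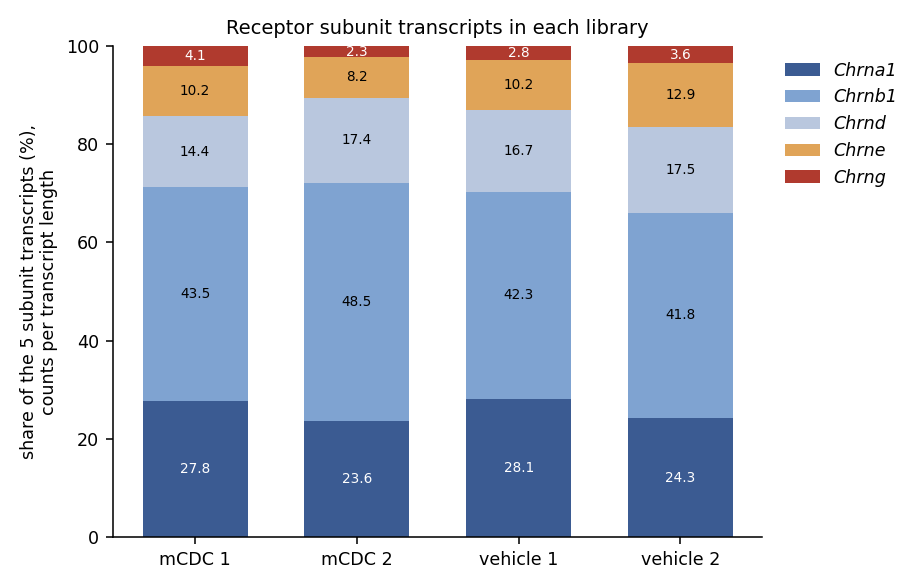
Share of each receptor subunit transcript, in percent of the 5 subunits' counts per transcript length, in each of the 4 libraries (stacked bars, 1 bar per library). The *Chrng* share is highest in mCDC replicate 1, at 4.10%, and lowest in mCDC replicate 2, at 2.28%.

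The agrin receptor gene *Lrp4* lies on chromosome 2 between 91457511 and 91513779. It had 21.6 and 22 CPM in vehicle replicates 1 and 2 against 20.5 and 19.2 CPM in mCDC replicates 1 and 2. Both mCDC libraries were below both vehicle libraries by a small margin. Its log2 fold change was -0.14 (standard error 0.15, 95% interval -0.48 to 0.21, edgeR adjusted p = 0.845). It was 0.0029 with the length and GC trend removed, and at 7926 bases *Lrp4* has the longest transcript of the 10.

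*Musk*, the gene of the receptor kinase, lies on chromosome 4 between 58285960 and 58374303. It had 7.71 and 6.69 CPM in vehicle replicates 1 and 2 against 6.59 and 10.3 CPM in mCDC replicates 1 and 2. The 2 mCDC libraries were the lowest and the highest of the 4. The fold change was 0.23 on the log2 scale (standard error 0.25, 95% interval -0.36 to 0.81, edgeR adjusted p = 0.845), with -0.13 when mCDC replicate 2 and 0.52 when mCDC replicate 1 was left out.

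*Dok7*, the gene of the MuSK adaptor, lies on chromosome 5 between 35056766 and 35087839. It had 24.9 and 20.9 CPM in vehicle replicates 1 and 2 against 26.2 and 25.6 CPM in mCDC replicates 1 and 2. Both mCDC libraries were above both vehicle libraries, the first of which was close to them. The log2 fold change was 0.18 (standard error 0.16, 95% interval -0.19 to 0.54, edgeR adjusted p = 0.811), and it was 0.057 without vehicle replicate 2.

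*Rapsn*, the gene of the clustering scaffold rapsyn, lies on chromosome 2 between 91035620 and 91045729. It varied least of the 10, with 34.8 and 34.2 CPM in vehicle replicates 1 and 2 against 37.2 and 36.9 CPM in mCDC replicates 1 and 2. The groups were separate and the highest library was 1.09 times the lowest. Its log2 fold change was 0.10 (standard error 0.14, 95% interval -0.21 to 0.42, edgeR adjusted p = 0.867).

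*Ncam1* encodes a neural cell adhesion molecule that is concentrated at the synapse of innervated fibers and spreads over denervated and regenerating ones, and lies on chromosome 9 between 49502136 and 49798925. It had 97.1 and 91.5 CPM in vehicle replicates 1 and 2 against 92 and 118 CPM in mCDC replicates 1 and 2. mCDC replicate 2 was highest and the other 3 libraries overlapped. The log2 fold change was 0.15 (standard error 0.15, 95% interval -0.20 to 0.51, edgeR adjusted p = 0.831), and it was -0.035 without mCDC replicate 2. Schwann cells and nerve also express *Ncam1*, and the Schwann cell markers were highest in vehicle replicate 2. The part of those cells in its level was not tested. *Gm11149*, on the opposite strand, shares 417 exon bases with *Ncam1*, and it had a count of 1.06 in vehicle replicate 1 and none elsewhere. Reads of the *Ncam1* transcripts that splice differently were not separated, so its level per length depends on the transcripts assumed.

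The 95% intervals lay wholly within a 1.5-fold change in either direction for 6 of the 10 genes: *Chrna1*, *Chrne*, *Lrp4*, *Dok7*, *Rapsn* and *Ncam1*. A larger change stayed inside the interval of *Chrnb1*, *Chrnd*, *Chrng* and *Musk* in the higher direction only. The widest intervals, those of *Chrng* and *Musk*, belonged to the 2 genes with the lowest CPM.

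**Figure D4:**
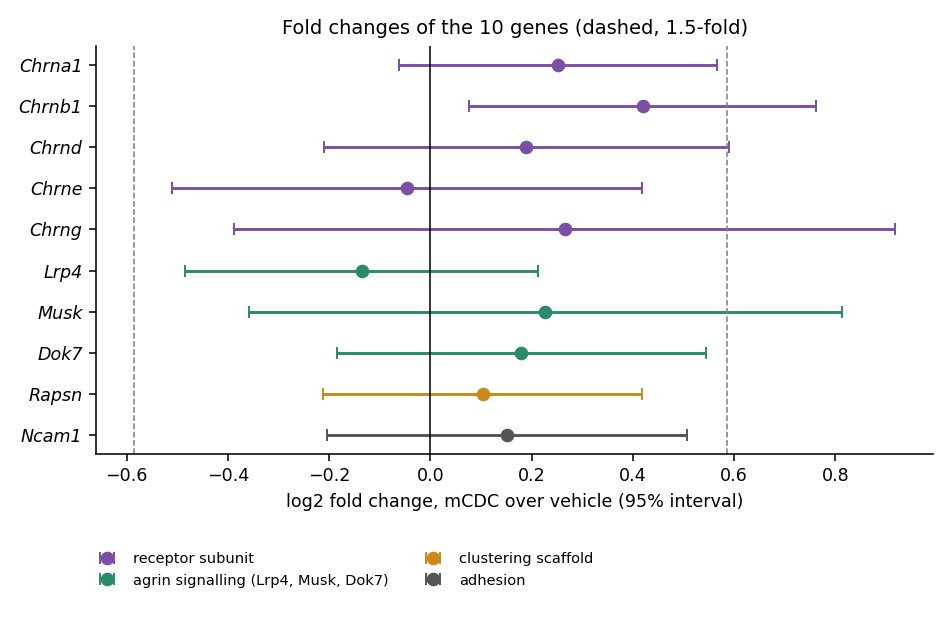
Log2 fold change of mCDC over vehicle muscles for the 10 genes (points, colored by role) with 95% intervals from edgeR's quasi-likelihood fit (bars), with dashed lines at 1.5-fold in each direction. The interval of *Chrnb1* alone lies above 0, and those of *Chrnb1*, *Chrnd*, *Chrng* and *Musk* cross the upper dashed line.

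The 10 genes did not follow 1 common pattern over the 4 libraries. *Chrnb1*, *Chrnd*, *Musk* and *Ncam1* were highest in mCDC replicate 2, *Chrna1*, *Chrng*, *Dok7* and *Rapsn* in mCDC replicate 1, and *Chrne* and *Lrp4* in vehicle replicate 2. Likeness was measured as the root mean square difference of log2 CPM centered on each gene's mean over the 4 libraries, among 52 other genes of the same lists. *Ncam1* was nearest to *Ache*, the acetylcholinesterase of the synaptic cleft, at 0.048, and *Chrna1* was nearest to *Dok7*, at 0.047. *Dok7* itself was nearer to *Trim63*, an atrophy ligase gene, at 0.022, and *Chrne* was nearest to *Col13a1*, a synaptic collagen, at 0.031. *Lrp4* was nearest to *Lamb2*, a laminin chain of the synaptic cleft, at 0.060, and *Rapsn* to *Fbxo30*, a ubiquitin ligase gene, at 0.071. *Chrnb1* and *Chrnd* were both nearest to *Gabpb1*, a subunit of the ETS factor GABP, at 0.083 and 0.063. *Musk* was nearest to *Cttn*, the gene of the actin-binding protein cortactin, at 0.069. *Chrng* had no close neighbor, with *Col13a1* at 0.20. It also varied most of the 10 over the libraries, and its median distance to the other genes, 0.39, was the largest. Such distances grow with a gene's own spread. With only 4 libraries these distances are descriptions.

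Of 29 further genes of the synapse, such as agrin, the matrix of the synaptic cleft, the utrophin complex and neuregulin signaling, 27 were tested. None was called higher and 2 were called lower, against 1.26% and 2.74% of all tested genes, and the median log2 fold change was -0.031. The genes called lower were *Agrn*, the agrin gene, and *Lama4*, a laminin chain of synaptic and vascular basement membrane. *Agrn* had 34.5 and 50.7 CPM in vehicle replicates 1 and 2 against 29.7 and 27.1 CPM in mCDC replicates 1 and 2, a log2 fold change of -0.59 (standard error 0.20, edgeR adjusted p = 0.684). *Lama4* had 8.36 and 12.6 CPM in vehicle replicates 1 and 2 against 7.12 and 6.21 CPM in mCDC replicates 1 and 2, a log2 fold change of -0.65 (standard error 0.24, edgeR adjusted p = 0.705). Both were highest in vehicle replicate 2, as the Schwann cell markers were, and the part of those cells was not tested. Counts of *Agrn* in bulk muscle do not measure the agrin released by the motor nerve. Without vehicle replicate 2 the log2 fold changes of *Agrn* and *Lama4* were -0.28 and -0.33 and neither was called. Neither was called without mCDC replicate 2, at -0.52 and -0.56, or once the trend with length and GC content was taken out, at -0.45 and -0.47. The fold change of *Agrn* lay barely past 1.5-fold, and it was not called with DESeq2 or RLE size factors either, at -0.57 and -0.58.

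The next smallest p among these genes was that of *Dnaja3*, which encodes a MuSK-binding chaperone also known as Tid1. It had 122 and 105 CPM in vehicle replicates 1 and 2 against 138 and 140 CPM in mCDC replicates 1 and 2, a log2 fold change of 0.29 (standard error 0.14, edgeR adjusted p = 0.724). *Ache*, with a log2 fold change of 0.22, *Utrn*, the utrophin gene, with -0.31, and *Erbb3*, a neuregulin receptor, with -0.43 were not called. *Nrg1* and *Erbb4* were too low to test, at or below 0.11 CPM in every library.

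Of 15 genes known to be induced by denervation, the 10 genes above left out, 14 were tested. In mCDC muscles 6 were called higher and 1 lower, against 1.26% and 2.74% of all tested genes. The median log2 fold change was 0.45. The list was chosen with earlier results of these data known, so these counts describe it and do not test for an excess. Without mCDC replicate 2, 2 were called higher and none lower, and the median was 0.21. With library totals only, 4 were called higher and 3 lower, and without vehicle replicate 2, 3 were called higher and 3 lower. Several of the called genes are also known from muscle differentiation, stress or stretch responses.

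The myogenic factor *Myog*, which activates some receptor genes in denervated muscle, had 21.3 and 24.4 CPM in vehicle replicates 1 and 2 against 32.6 and 63.3 CPM in mCDC replicates 1 and 2. *Myod1* was highest in the other mCDC library, with 19.1 and 26.0 CPM in vehicle replicates 1 and 2 against 50.4 and 30.5 CPM in mCDC replicates 1 and 2. For both genes the mCDC libraries lay above the vehicle libraries without overlap. Their log2 fold changes were 1.07 and 0.84, with edgeR adjusted p of 0.612 and 0.635 and DESeq2 adjusted p of 0.0390 and 0.195. *Myog* was not called without mCDC replicate 2, at 0.51, and *Myod1* was not called without mCDC replicate 1, at 0.44, or without vehicle replicate 1, at 0.64.

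*Cdkn1a*, the cell cycle inhibitor p21, had 40.8 and 52.1 CPM in vehicle replicates 1 and 2 against 75.4 and 97.8 CPM in mCDC replicates 1 and 2, a log2 fold change of 0.90 (standard error 0.18, edgeR adjusted p = 0.462, DESeq2 adjusted p = 0.0099). It was called under each of the 13 alternatives. *Runx1*, a transcription factor that protects denervated muscle from wasting, had 18.2 and 13.2 CPM in vehicle replicates 1 and 2 against 18.8 and 30.7 CPM in mCDC replicates 1 and 2. *Ankrd1*, an ankyrin repeat protein of the stretch response, had 118 and 110 CPM in vehicle replicates 1 and 2 against 118 and 256 CPM in mCDC replicates 1 and 2. For both, mCDC replicate 2 stood highest, and for *Runx1* vehicle replicate 2 also stood apart, below the other libraries. Their log2 fold changes were 0.66 and 0.72, with edgeR adjusted p of 0.713 for each, and without mCDC replicate 2 they were 0.26 and 0.057. *Ankrd1* was not called in 7 of the 13 alternatives. Among these were DESeq2, at 0.73 with an unadjusted p of 0.174, library totals only, at 0.64, and no filter on low counts, at 0.72. The omission of vehicle replicate 1, at 0.78, or of vehicle replicate 2, at 0.67, also lost the call. *Runx1* was not called in 4 of the 13 alternatives, among them library totals only, at 0.58, and the omission of vehicle replicate 2, at 0.44.

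*Fbxo32*, which encodes the atrophy ubiquitin ligase atrogin-1, was the gene called lower. It had 426 and 340 CPM in vehicle replicates 1 and 2 against 271 and 211 CPM in mCDC replicates 1 and 2, a log2 fold change of -0.67 (standard error 0.18, edgeR adjusted p = 0.612). It was not called without mCDC replicate 2, at -0.50, without vehicle replicate 1, at -0.49, or once the trend with length and GC content was taken out, at -0.45. *Trim63*, the other classical atrophy ligase gene, had a log2 fold change of 0.17, and *Gadd45a*, a stress gene that denervation strongly induces, had one of 0.15, and neither was called. *Kcnn3*, a potassium channel gene, and *Hdac4*, a histone deacetylase gene, lay below 0 at -0.55 and -0.65, with unadjusted edgeR p of 0.0463 and 0.0523, the first short of 1.5-fold and the second past it. For *Kcnn3* both mCDC libraries were below both vehicle libraries. The other 3 tested genes of the list had log2 fold changes of 0.86 for *Fgfbp1*, 0.24 for *Ampd3* and 0.034 for *Fbxo30* and were not called. *Dach2* and *Hdac9*, repressors of *Myog* and of the receptor genes that fall on denervation, had log2 fold changes of -0.32 and -0.045 (edgeR adjusted p = 0.848 and 0.974).

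**Figure D5:**
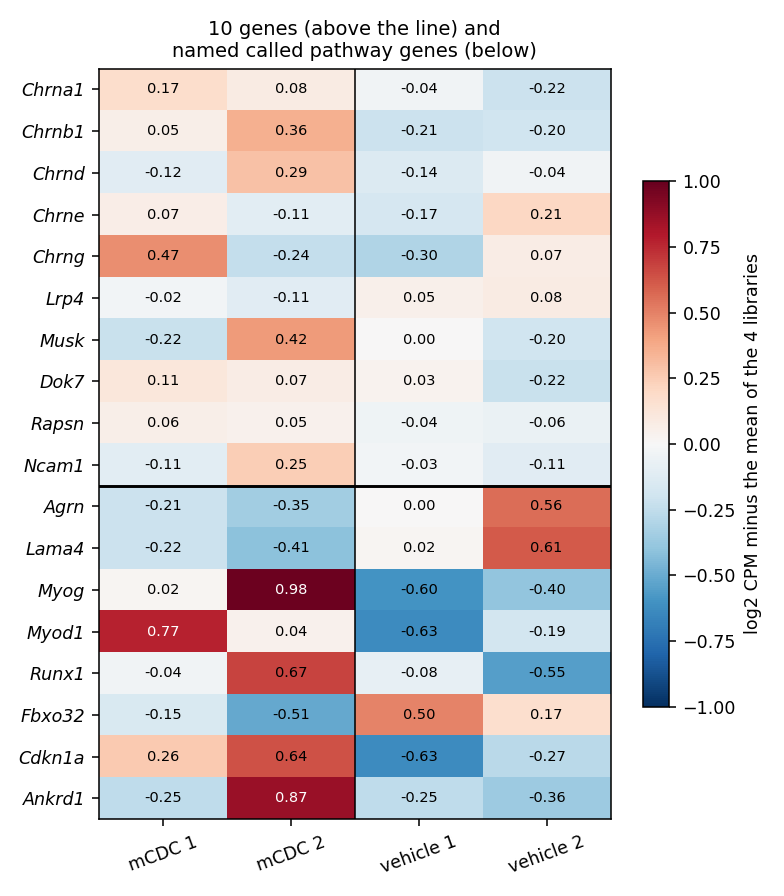
Log2 CPM of each gene minus its mean over the 4 libraries (color scale and printed values) for the 10 genes above the line and, under it, the called synapse and denervation genes described in the text, with 1 column per library. *Myog*, *Runx1* and *Ankrd1* are highest in mCDC replicate 2, as *Chrnb1*, *Chrnd*, *Musk* and *Ncam1* are, while *Myod1* and *Chrng* are highest in mCDC replicate 1.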

How the data were processed

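Soleus muscles were profiled by bulk RNA sequencing, 2 per group. Single-end reads were mapped by the authors to a UCSC transcript set with Bowtie2 2.1.0 and counted with RSEM 1.2.15, and the labels name build mm10, which is GRCm38. The deposited values were expected counts per gene, not normalized, and 15.7% were not whole because RSEM divides reads that fit several transcripts. The methods and the sample records name different library kits, and whether strand was used in counting is not given in the sources used here. At most 3.98% of the 31-base words of a member's transcripts occur in another gene, the highest share being that of *Chrna1*.

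Expected counts were rounded and tested in R 4.3.3 with edgeR 4.0.16 (filterByExpr, trimmed mean of M-values, quasi-likelihood F-test with legacy = FALSE), over all genes. Standard errors were taken from each log2 fold change and its F statistic. The procedure was tested on simulated data. Lengths, GC content and coordinates came from GENCODE M21 and promoters from RefSeq, both GRCm38. The members and lists were chosen with earlier results of these data known. Named were all members, called genes of the 3 synapse and denervation lists, and, where fewer than 3 were called, the 3 with the smallest p. Of the called denervation-induced genes, 1 is counted but not reported here. Other genes named with values, *Ache*, *Utrn*, *Erbb3*, *Nrg1*, *Erbb4*, *Myh8*, *Mymk*, *Mymx*, *Myf5* and the uncalled denervation-induced genes, were chosen after their values were seen. Alternatives were DESeq2 1.42.0, other scalings and filters, the legacy form, offsets for transcript length and GC content, a block by replicate number, and omission of each library in turn.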

Additional observations from a re-analysis of the deposited data

How the results depend on the processing

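None of the 10 genes was called under any of the 13 alternatives. In the 130 combinations of gene and alternative, the direction held in 122, though many of the alternatives refit the same libraries. With a library left out, the direction reversed at least once for 5 of the 10 genes. *Lrp4* turned to 0.0029 with the length and GC trend removed, and to 0.0023 with the replicate block added to it. Leaving out each library in turn gave ranges of -0.027 to 0.38 for *Chrnd*, -0.22 to 0.15 for *Chrne*, -0.13 to 0.57 for *Chrng*, -0.13 to 0.52 for *Musk* and -0.035 to 0.32 for *Ncam1*. The median of the 10 genes ran from 0.074 to 0.18 with a library left out and was 0.11 with library totals only, where the median of all tested genes was -0.089. The cause of these changes was not tested.

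With a library left out, 112 to 397 genes were called higher across the table and 236 to 834 lower, 0 to 3 synapse genes lower, and 2 to 5 denervation-induced genes higher and 0 to 3 lower. The number of synapse genes called lower was 1 with DESeq2, RLE size factors or the replicate block, and 0 with the length and GC trend removed, with or without the block. The number of denervation-induced genes called lower was 2 with DESeq2 or the replicate block, 3 with library totals only, and 0 with the length and GC trend removed, with or without the block. For the called synapse and denervation genes, 86 of 117 combinations kept the call and the other 31 kept only the direction.

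Same-numbered libraries share only a number, and the correlation of their deviations from the group means was -0.039. With the replicate block, 172 genes were called higher and 308 lower, 4 denervation-induced genes were called higher, and *Agrn*, *Runx1* and *Ankrd1* were not called, at -0.56, 0.63 and 0.62. The 4 libraries and the low counts of *Chrng* and *Musk* limit what differences could be seen.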
